A study of Mus musculus with 7 samples.

Results

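The aminoacyl-tRNA synthetases are the enzymes that load amino acids onto transfer RNAs. Their messenger RNAs were followed here in B16 mouse melanoma cells after a short exposure to interferon gamma (IFNγ). Members were taken by gene symbol, and all 36 were found among the 13587 genes listed in at least 1 of the deposited tables. They comprise 20 cytosolic enzymes, of which Wars is described on its own, and 16 mitochondrial enzymes, whose symbols end in 2. PolyA RNA was sequenced from a clonal, stable B16 line of C57Bl/6 origin, so all values describe 1 clone. Detached cells were pulsed for 5 h with 10 nM recombinant mouse IFNγ, or with medium alone (mock), then washed and plated at 35000 cells per well. The 7 groups are T0 (labelled 0 h), mock at 23.5, 48 and 91 h, and IFNγ at 23.5, 48 and 91 h. All groups share the line and the culture medium, and the labels do not say whether T0 cells had been through a pulse or when the hours began.

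Cytosolic synthetases supply the ribosomes that translate nuclear genes, and a separate nuclear-encoded set is imported to serve the ribosomes of mitochondria. In mammals, Dars, Eprs, Iars, Kars, Lars, Mars, Qars and Rars sit together in the multisynthetase complex, held by the scaffold proteins Aimp1, Aimp2 and Eef1e1. When amino acids are scarce, uncharged transfer RNAs activate a kinase of the initiation factor eIF2, and the transcription factor ATF4 then induces many cytosolic synthetase genes along with amino acid transporters and biosynthetic enzymes. Wars, the tryptophanyl-tRNA synthetase, is also a classical IFNγ-induced gene in human cells.

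Of the deposited means, 99.6% were resolved into the whole reads of the 2 libraries behind them, and levels below are normalised reads (reads divided by a library's size factor), put on 1 scale through the T0 column that all tables share. Reads in recovered genes ran from 12894823 to 24459404 per library. Among genes at 1000 or more, the log2 ratio of a group's libraries had an SD of 0.067 to 0.150, except in IFNγ at 48 h, where it was 0.419. The IFNγ-induced genes Irf1, Igtp and Tap1 all passed as higher in IFNγ than in mock at both 23.5 and 91 h (3 of 3), and all rose in the mock groups of 48 and 91 h over T0 as well (3 of 3; Igtp by log2 ratios of 4.01 and 3.91). All 6 melanocyte markers were listed, with a summed level of 195000 to 308000. Markers of other cells stayed far below them: Lck was the only T cell marker listed of 4, at up to 143, Cd68 the only myeloid one of 4, at up to 97.1, and Vwf the only endothelial one of 3, at up to 933, while the 4 fibroblast markers summed to 275 to 469 and neither of the 2 keratinocyte markers was listed. Some of these markers moved with the comparisons. Lck was higher in mock than in T0 at 48 and 91 h (log2 ratios of 2.21 and 2.31). Vwf was higher at 48 h (0.86) and lower at 91 h (−0.51), and Cd68 was higher at 91 h (0.91). Of 4 fibroblast markers, 1 was higher and 2 were lower at 48 h, and 0 and 2 at 91 h. The 4 tested melanocyte markers split as 1 higher and 1 lower at 48 h, and 2 and 2 at 91 h. In IFNγ against mock at 23.5 h, 2 of 4 tested melanocyte markers, Lck (0.81) and Vwf (0.53) were higher. At 91 h, 4 of 4 melanocyte markers and Cd68 (1.49) were higher. Of the fibroblast markers, 1 of 4 was higher and 1 lower at 23.5 h, and 1 of 2 tested was lower at 91 h. The part of all these markers in the changes of the synthetases was not tested.

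Per kilobase of annotated exon, the median level in T0 was 842 normalised reads over the 20 cytosolic genes and 97.0 over the 16 mitochondrial ones, although the highest of all was the mitochondrial Lars2, at 32000. Gars, which makes the glycine enzyme of both compartments, came next at 3150 per kb, followed by Nars (asparagine) at 1480 and Kars (lysine, likewise serving both compartments) at 1170. Wars was at 932 per kb, between Mars at 953 and Aars at 922, and Farsa was the lowest cytosolic gene at 249. Of the mitochondrial enzymes other than Lars2, Rars2 was highest at 353 per kb and Nars2 lowest at 34.3. By mock 91 h the order had changed, with Wars at 3620 per kb, below only Gars among cytosolic genes, at 6260. Summed over the 20 cytosolic genes, the level was 82150 and 82950 in the T0 libraries, 90470 and 85680 in mock 23.5 h, 119700 and 112500 in mock 48 h, and 137900 and 137400 in mock 91 h. The 15 mitochondrial genes without Lars2 moved the other way in sum, from 9052 and 8980 in T0 to 7589 and 7711 in mock 91 h.

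Wars lies on mouse chromosome 12 (GRCm38, chr12:108860030-108894174, minus strand). Its level was 3116 and 3310 in the T0 libraries and 3220 and 3196 in mock 23.5 h, so these groups overlapped. In mock 48 h it was 7280 and 6342, and in mock 91 h 12370 and 12590. Each of these last groups lay wholly above all earlier ones. In the IFNγ libraries Wars stood at 3436 and 3486 (23.5 h), 8259 and 4223 (48 h), and 10590 and 10360 (91 h). The order of group levels was thus mock 23.5 h (3208), T0 (3213), IFNγ 23.5 h (3461), IFNγ 48 h (6241), mock 48 h (6811), IFNγ 91 h (10480) and mock 91 h (12480). T0 and mock 23.5 h did not differ beyond their spread, nor did IFNγ and mock at 48 h.

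Wars rose with time in mock culture, where the pulse was medium alone. At 48 and 91 h the IFNγ-induced genes Irf1, Igtp and Tap1 rose there as well. Whether the rise of Wars is related to theirs was not tested. Against T0, the log2 ratio in mock was −0.0015 (SE 0.05, adjusted p = 0.988) at 23.5 h, 1.08 (SE 0.07, adjusted p = 8.5e-07) at 48 h and 1.96 (SE 0.04, adjusted p = 1.6e-13) at 91 h, the last a 3.89-fold difference. All adjusted p-values here are those of limma with Benjamini-Hochberg adjustment over all genes tested, two-sided, unless named as the authors'. Separate cultures are not stated for the libraries of a group, and the p-values then measure only the spread between libraries, which may be technical. Wars did not pass the test between IFNγ and mock at 23.5 h (log2 ratio 0.11, SE 0.04, adjusted p = 0.111) or at 48 h (−0.20, SE 0.33, adjusted p = 0.919). At 91 h it was lower in IFNγ by a log2 ratio of −0.25 (SE 0.05, adjusted p = 0.0012). Both IFNγ libraries at 91 h lay below both mock libraries. That call was lost with no trend of the variance with level (adjusted p = 0.103) and in 1 fit over all 14 libraries (adjusted p = 0.616), and adjusted p ran from 0.00056 to 0.616 over the alternatives. Its mitochondrial counterpart Wars2 had a level of 299.5 and 270.8 in T0, 350.7 and 382.1 in mock 91 h and 383.8 and 384.7 in IFNγ 91 h. Wars2 rose by a log2 ratio of 0.36 (SE 0.10, adjusted p = 0.0047) in mock 91 h over T0 and did not pass between IFNγ and mock at 91 h (0.07, SE 0.09, adjusted p = 0.67).

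**Figure D1:**
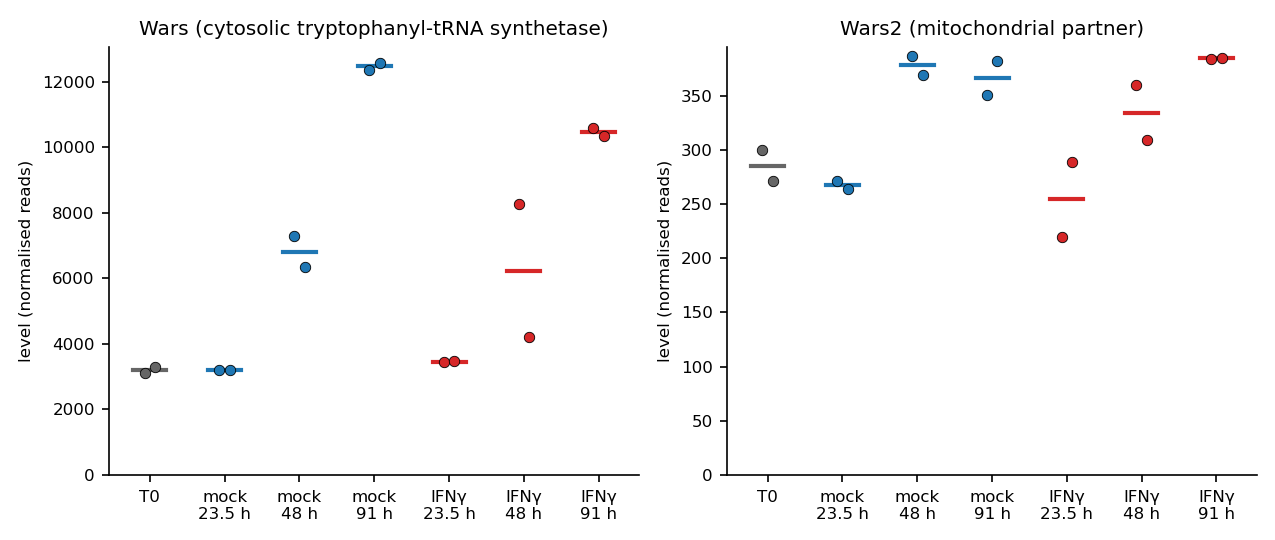
Level of Wars (left) and Wars2 (right) in normalised reads, on linear axes from 0, in the 7 groups. Points are the 2 recovered libraries and bars are group means. Wars stood at 3213 in T0 and 3208 in mock 23.5 h and reached 12480 in mock 91 h, and the IFNγ 48 h libraries were apart at 8259 and 4223.

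The cytosolic enzymes as a class rose during mock culture, with a minority moving the other way. At 23.5 h, 4 of 20 were higher than in T0 and 0 lower, where 14.3% of 12482 genes tested passed (8.08% higher, 6.18% lower). At 48 h, 16 were higher and 4 lower, where 63.4% of all genes passed (32.0% higher, 31.4% lower). At 91 h, 12 were higher and 6 lower, where 74.2% passed (37.2% higher, 37.1% lower). The median log2 ratio of the 20 genes was 0.05, 0.35 and 0.40 at the 3 times, beside −0.0016, −0.0021 and 0.0024 over all genes tested. These comparisons share the T0 libraries. In bulk RNA, a change in the number of cells of one kind and a change in RNA per cell cannot be told apart.

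After Wars, the serine enzyme Sars had the largest log2 ratio to T0 in mock at 91 h. Its level was 4892 and 5130 in T0, 6370 and 5707 in mock 23.5 h, 9123 and 9194 in mock 48 h, and 14590 and 14560 in mock 91 h. No library of a later group fell to the level of an earlier one. The log2 ratio to T0 was 0.27 (SE 0.05, adjusted p = 0.0053), then 0.87 (SE 0.05, adjusted p = 5.3e-07), then 1.54 (SE 0.04, adjusted p = 8.8e-13). Eprs, a fused enzyme that charges transfer RNAs for both glutamate and proline, stood at 6439 and 6392 in T0, 7182 and 7155 in mock 23.5 h, 12910 and 11450 in mock 48 h, and 14470 and 14830 in mock 91 h. These groups did not overlap either, and the ratio to T0 at 91 h was 1.19 (SE 0.04, adjusted p = 6.4e-12). Nars had levels of 6444 in both T0 libraries and of 13280 and 12780 in mock 91 h, a log2 ratio of 1.01 (SE 0.04, adjusted p = 4.3e-11). Gars had levels of 9774 and 9859 in T0 and of 19590 and 19480 in mock 91 h, a log2 ratio of 0.99 (SE 0.04, adjusted p = 3.2e-11), and stayed the highest of the class per kb. Rars, the arginine enzyme, was late: its level was 2724 and 2832 in T0, 3231 and 3007 in mock 48 h, and 5398 and 5214 in mock 91 h. Its log2 ratio was 0.17 (SE 0.06, adjusted p = 0.04) at 48 h and 0.93 (SE 0.04, adjusted p = 2.9e-10) at 91 h. Aars (alanine) and Lars (leucine) followed with 0.92 and 0.87 at 91 h, and Tars, Yars, Farsb and Iars rose by 0.38 to 0.48.

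Other cytosolic enzymes fell. Hars, for histidine, had levels of 1945 and 1996 in T0, 1553 and 1506 in mock 48 h and 1253 and 1245 in mock 91 h, a log2 ratio of −0.66 (SE 0.05, adjusted p = 4.1e-08) at 91 h, with no overlap between the groups. Kars fell by 0.50 and Farsa, the alpha subunit of the phenylalanine enzyme, by 0.36 on the log2 scale at 91 h, while Farsb, the beta subunit, rose by 0.39. Qars (glutamine) fell at 48 h by 0.59 (SE 0.08, adjusted p = 7.1e-05), with levels of 2488 and 2333 in T0 and of 1505 and 1706 in mock 48 h. It was nearer to T0 at 91 h, at 2180 and 2231 (log2 ratio −0.13, adjusted p = 0.026). Mars and Vars, for methionine and valine, turned round. Mars had a level of 3227 and 3297 in T0, 4007 and 3661 in mock 48 h, and 1952 and 1821 in mock 91 h, so it lay above T0 at 48 h (0.23, adjusted p = 0.0086) and below it at 91 h (−0.79, SE 0.05, adjusted p = 5.3e-09). Vars had 4981 and 4894 in T0, 6902 and 5772 in mock 48 h, and 3642 and 3686 in mock 91 h, with log2 ratios of 0.35 and −0.43. Cars and Dars rose at 48 h (0.37 and 0.35) and did not pass at 91 h (−0.08 and 0.08). Of the 8 members of the multisynthetase complex, 4 were higher at 91 h (Eprs, Rars, Lars, Iars) and 3 lower (Mars, Kars, Qars), where 37.2% of all genes were higher and 37.1% lower. Of the 12 cytosolic enzymes outside it, 8 were higher and 3 lower.

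Several exons are shared with neighbours, and the strand setting of the counting is not given in the sources used here, so these values are uncertain to that extent. Mars shares 68 exon bases with Ddit3 on the opposite strand, a gene that rose in mock while Mars fell at 91 h. Hars and Hars2 share 195 bases, Aars shares 1326 with Exosc6 on the same strand (not listed in the tables), Farsb shares 248 with Sgpp2 (not listed), and Iars2 shares 2034, or 22.9% of its exon length, with Rab3gap2. Cars2 shares 422 bases with Naxd and Fars2 shares 501 with Nrn1 (not listed).

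**Figure D2:**
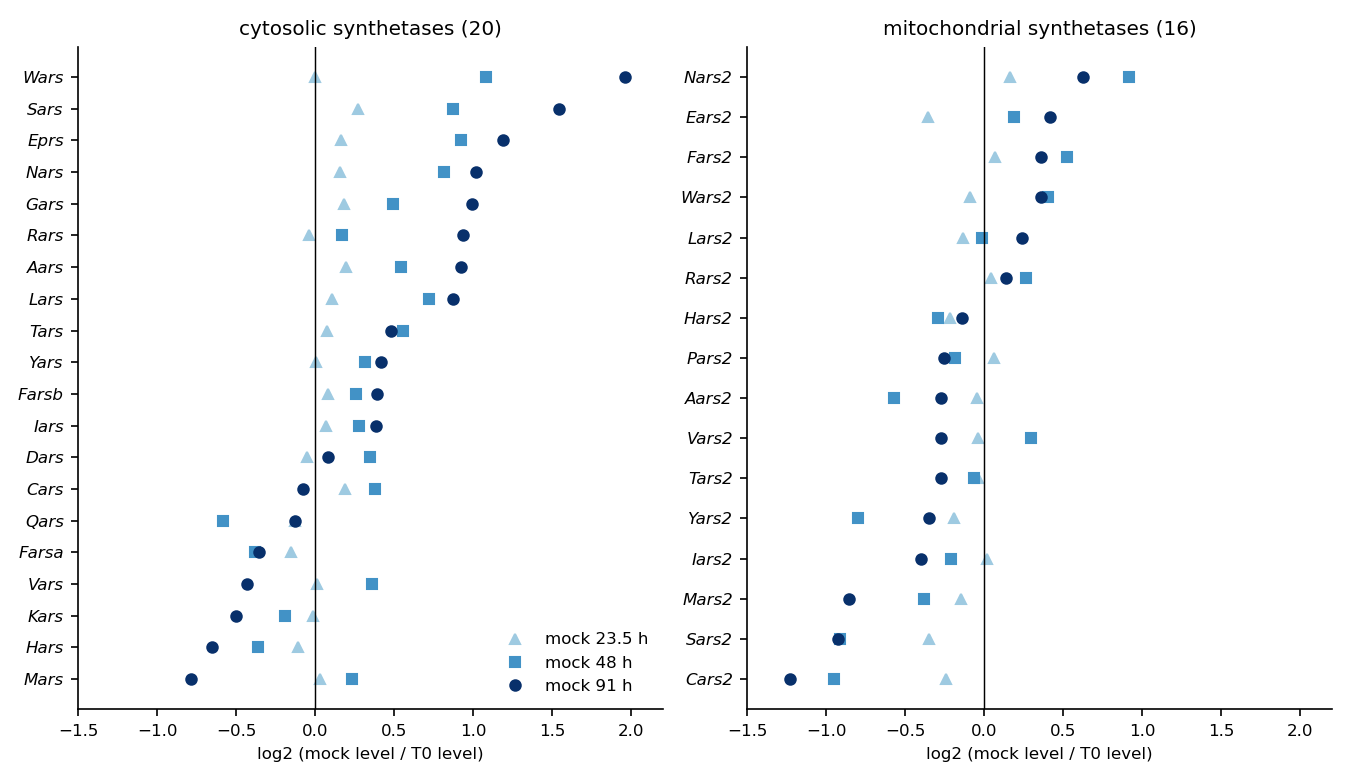
Log2 ratio of the mean level in mock to that in T0 for the 20 cytosolic (left) and 16 mitochondrial (right) synthetases, sorted by the value at 91 h. Triangles are 23.5 h, squares 48 h and circles 91 h, and all 3 share T0. Wars reached 1.96 and Mars −0.79 among cytosolic genes, and mitochondrial genes lay between Nars2 (0.62) and Cars2 (−1.23).

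At 23.5 h, 4 of 35 members tested were higher in mock than in T0 and 2 lower, where 8.08% and 6.18% of all genes were. Sars (above) and Aars were higher. Aars had levels of 8514 and 8594 in T0 and 10240 and 9332 in mock (0.19, SE 0.05, adjusted p = 0.019). Gars (0.18, adjusted p = 0.019) and Eprs (0.16, adjusted p = 0.022) were higher too. Ears2, for glutamate, and Sars2, the mitochondrial serine enzyme, were lower by −0.36 (SE 0.10, adjusted p = 0.025) and −0.35 (SE 0.09, adjusted p = 0.02). All 6 calls were lost with no trend of the variance with level and in 1 fit over all 14 libraries. Without T0 library 1, Sars and Sars2 still passed, and without T0 library 2, Sars alone. Library 1 of mock 23.5 h stood above library 2 for 17 of 20 cytosolic genes (median log2 gap 0.06) and for 24 of 25 ATF4 pathway genes (0.23), beside 49.2% of all genes. How many members passed changed when either library of mock 23.5 h was left out, as did the number over all genes.

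A list of 26 ATF4 pathway genes was set beside the enzymes, of which 25 were listed and tested. It covers the transcription factors of the pathway, amino acid transporters, and serine, proline and asparagine synthesis. In mock against T0, 17 were higher at 23.5 h, 23 at 48 h and 24 at 91 h, and 0 were lower at any of these times, where 8.08%, 32.0% and 37.2% of all genes were higher. The list's median log2 ratio was 0.31, 1.43 and 1.61. Asns, which makes asparagine, had levels of 3866 and 3882 in T0, 12250 and 11670 in mock 48 h, and 10440 and 10280 in mock 91 h. Trib3, a pseudokinase induced by ATF4, went from 512.6 and 514.2 in T0 to 9702 and 8492 at 48 h and 10690 and 9961 at 91 h. Ddit3, which encodes the transcription factor CHOP, went from 502.6 and 567.7 to 5834 and 4850 and then to 12720 and 13330. None of these groups overlapped with T0. Of 5 genes (eIF2 kinases and the partner Gcn1l1), 2 were higher and 2 lower in mock at 48 h, and 1 and 1 at 91 h. Of all genes, 32.0% were higher and 31.4% lower at 48 h, and 37.2% and 37.1% at 91 h. Eif2ak2, itself an interferon-induced gene, rose by 1.44 at 48 h and 1.40 at 91 h. Eif2ak4, the kinase that senses uncharged transfer RNA, was at −0.09 (not passed) and −0.15 (lower).

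Promoters were searched for the amino acid response element bound by ATF4 (TGATGNAA, both strands), the gamma-activated site of the IFNγ pathway (GAS, TTCNNNGAA, a palindrome) and the core of the interferon-stimulated response element. The windows, from RefSeq (GRCm38.p6), run from 250 bases before to 50 after a start site, and 27 of 36 members matched one. Cars, Hars, Lars, Nars, Rars, Vars, Wars, Hars2 and Pars2 did not. The response element was found in 5 of 13 cytosolic members (Aars, in 2 places, Gars, Iars, Tars and Yars) and in 0 of 14 mitochondrial ones, beside 4.51% of 27025 genes. All 5 rose in mock at 91 h, as did Eprs, Farsb and Sars, whose windows lack it. GAS was found in Aars, Kars and Nars2 (2 of 13 cytosolic and 1 of 14 mitochondrial members, beside 9.55% of genes). Of these, Kars alone passed between IFNγ and mock at 23.5 h, with Aars at a log2 ratio of 0.01 and Nars2 at 0.15. Rars, the other enzyme higher there, matched no window. The core element was found in Qars (3.99% of genes). The GAS of Aars does not overlap its response elements. A match is a run of letters, not a shown binding site. The stretches below run 5′ to 3′ on the gene's strand, with the match in capitals (of the response elements, that of Yars is on the gene's strand and the others on the opposite strand). The first 5 stretches are shown because they hold the response element. Kars is shown for its GAS, as it was among the enzymes higher in IFNγ at 23.5 h. Per GENCODE M21, those of Aars, Iars and Yars lie in exonic bases of their own gene, that of Tars overlaps its exon by 7 bases, and those of Gars and Kars lie upstream of any exon.
Aars (GRCm38.p6, chr8:111033840-111033869, plus strand): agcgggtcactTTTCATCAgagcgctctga
Gars (GRCm38.p6, chr6:55037946-55038000, plus strand): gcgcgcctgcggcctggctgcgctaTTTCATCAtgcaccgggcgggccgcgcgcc
Iars (GRCm38.p6, chr13:49682126-49682155, plus strand): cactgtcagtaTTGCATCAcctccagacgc
Tars (GRCm38.p6, chr15:11399659-11399698, minus strand): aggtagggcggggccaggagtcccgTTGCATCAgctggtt
Yars (GRCm38.p6, chr4:129189895-129189924, plus strand): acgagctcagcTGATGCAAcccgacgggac
Kars (GRCm38.p6, chr8:112011355-112011388, minus strand, GAS): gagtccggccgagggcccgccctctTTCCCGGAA

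Of the 15 mitochondrial enzymes tested, 0 were higher and 2 lower in mock than in T0 at 23.5 h, where 8.08% of all genes were higher and 6.18% lower. At 48 h, 5 were higher and 7 lower (32.0% and 31.4% of all genes), and at 91 h 5 were higher and 8 lower (37.2% and 37.1%). The share higher at 48 and 91 h was thus near that of all genes. The median log2 ratios of the 15 were −0.05, −0.18 and −0.27. Cars2, the cysteine enzyme, had levels of 317.7 and 336.3 in T0, 158.2 and 179.2 in mock 48 h, and 136.6 and 140.5 in mock 91 h. Its groups did not overlap, and it fell by 0.95 at 48 h (SE 0.12, adjusted p = 4.6e-05) and by 1.23 at 91 h (SE 0.11, adjusted p = 3.3e-07). Sars2 went from 391.5 and 441.1 in T0 to 188.1 and 252.6 at 48 h and 207.6 and 230.4 at 91 h, a log2 ratio of −0.93 and then −0.92 (SE 0.10, adjusted p = 3e-06), opposite in sign to its cytosolic counterpart Sars. Mars2, for methionine, had 748.4 and 696.5 in T0 and 401 and 397.5 in mock 91 h, with a ratio of −0.85 (SE 0.07, adjusted p = 2.3e-07). These falls were wider than the gap between libraries. Iars2, Yars2, Tars2, Vars2 and Aars2 were lower at 91 h by −0.27 to −0.40.

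A smaller number rose. Nars2, for asparagine, had levels of 243.1 and 234.7 in T0, 459.1 and 442.6 in mock 48 h, and 358.4 and 377.9 in mock 91 h, a log2 ratio of 0.91 (SE 0.10, adjusted p = 1.8e-05) at 48 h and 0.62 (SE 0.10, adjusted p = 5.7e-05) at 91 h. It was thus highest at 48 h. Fars2, Wars2 and Rars2 were higher at both 48 and 91 h (0.14 to 0.52), Ears2 was lower at 23.5 h and higher at 91 h (0.42), and Vars2 was higher at 48 h (0.30) before it fell. Hars2 was lower at 48 h alone (−0.29), and Pars2, for proline, passed at no time.

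Lars2, the mitochondrial leucine enzyme (chr9:123366927-123462666, GRCm38), could not be tested, because its means were too large for the reads of single libraries to be resolved outside T0. It stands apart from all other members: its level was 355000 in T0, with libraries at 364300 and 345900, and 32000 per kb, where Gars came next at 3150. Whether the reads counted on Lars2 come from its messenger RNA was not tested, so its level, its share and the deposited calls describe those reads. Group means ranged from 267000 (IFNγ 48 h) to 419000 (mock 91 h). As a share of the gene total, Lars2 was 1.58% in T0, 1.42%, 1.62% and 1.81% in mock at 23.5, 48 and 91 h, and 1.21%, 1.25% and 1.45% in IFNγ. The 18S ribosomal RNA repeat Rn18s-rs5, listed in the same tables, was at 12.5% in T0, 12.4%, 12.7% and 14.2% in mock, and 9.47%, 9.77% and 11.8% in IFNγ. Both shares were lower in IFNγ than in mock at every time, and their relation was not tested. In the authors' deposited table Lars2 was lower than T0 in IFNγ at 23.5 h (log2 ratio −0.40, adjusted p = 4.8e-06) and at 48 h (−0.41, adjusted p = 2.4e-07) and higher in mock at 91 h (0.24, adjusted p = 0.0017).

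**Figure D3:**
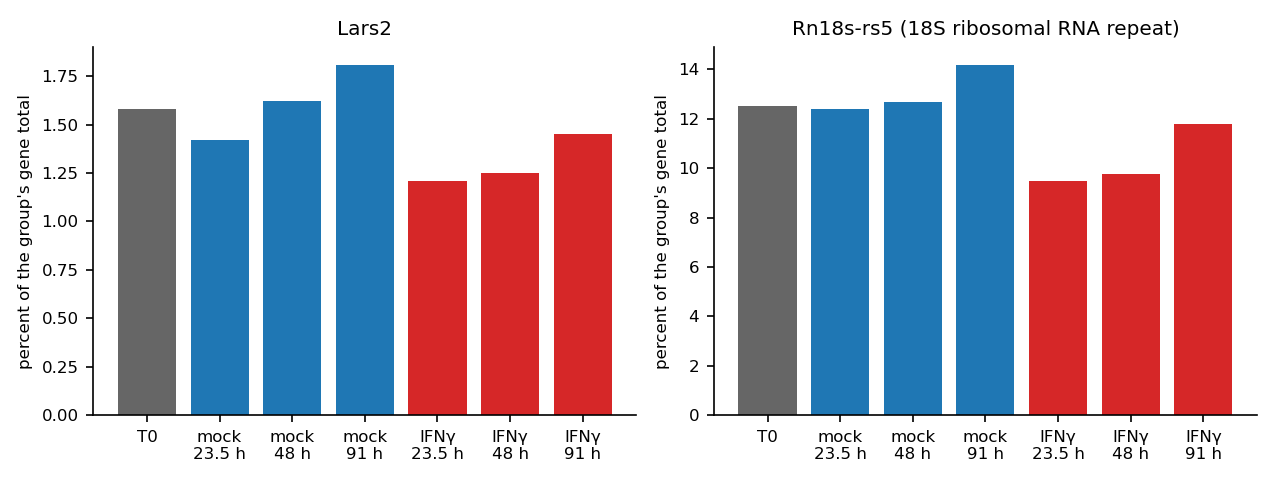
Share of the group's gene total taken by Lars2 (left) and by the ribosomal RNA repeat Rn18s-rs5 (right), in percent, from the deposited means. There is 1 bar per group and no error, since single libraries of Lars2 could not be resolved outside T0. Lars2 ran from 1.21% to 1.81% and Rn18s-rs5 from 9.47% to 14.2%, and the bars of IFNγ are lower than those of mock at each time in both panels.

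The exposure to IFNγ itself moved few synthetases at 23.5 h. Of 35 members tested, 2 were higher in IFNγ than in mock and 0 lower, where 14.6% of all genes passed (8.55% higher, 6.06% lower). Kars, a multisynthetase member, had levels of 5138 and 5192 in mock and 6233 and 6186 in IFNγ, a log2 ratio of 0.27 (SE 0.04, adjusted p = 0.0011). Rars, from the same complex, had 2640 and 2757 in mock and 3207 and 3204 in IFNγ, a ratio of 0.25 (SE 0.04, adjusted p = 0.0029). In both, the groups were wholly apart. The other 6 enzymes of the complex did not pass. With no trend of the variance both calls were lost, and in 1 fit over all 14 libraries that of Rars was lost. Which further members passed depended on the mock library left out, and the numbers over all genes moved as well. Without library 1 they were Nars, Qars and Sars (higher), and without library 2 Cars and Mars (lower). Over all genes, 58.5% of calls were higher, which became 48.4% with sizes set by the median of ratios and 49.1% with equal totals, and Kars and Rars passed under both. The cytosolic median was 0.04 and the mitochondrial one −0.06, beside 0.0016 over all genes.

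At 48 h, 0 of 35 members passed between IFNγ and mock, and limma called 0.0% of all 12650 genes (844 had an unadjusted p under 0.05, and limma voom called 0 as well). A single fit over all 14 libraries called 415 genes higher and 263 lower, with no member among them. The IFNγ libraries at this time lay far apart in the enzymes too. Wars read 8259 in library 1 and 4223 in library 2, the widest gap of any member in this group (log2 0.97). Eprs read 13690 and 8644, Lars 5933 and 3505, and Qars, in reverse, 1384 and 2186. Library 1 was above library 2 for 17 of 20 cytosolic members (median log2 gap 0.48) and for 24 of 25 ATF4 pathway genes (median 0.68), beside 49.8% of all genes, and for 8 of 15 mitochondrial members. Without library 1, the log2 ratio to mock was −0.69 for Wars, −0.65 for Mars, −0.56 for Tars and 0.45 for Qars. Without library 2, Wars stood at 0.28. How many genes passed, members or not, depended on which library was left out. What sets the libraries apart was not tested.

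**Figure D4:**
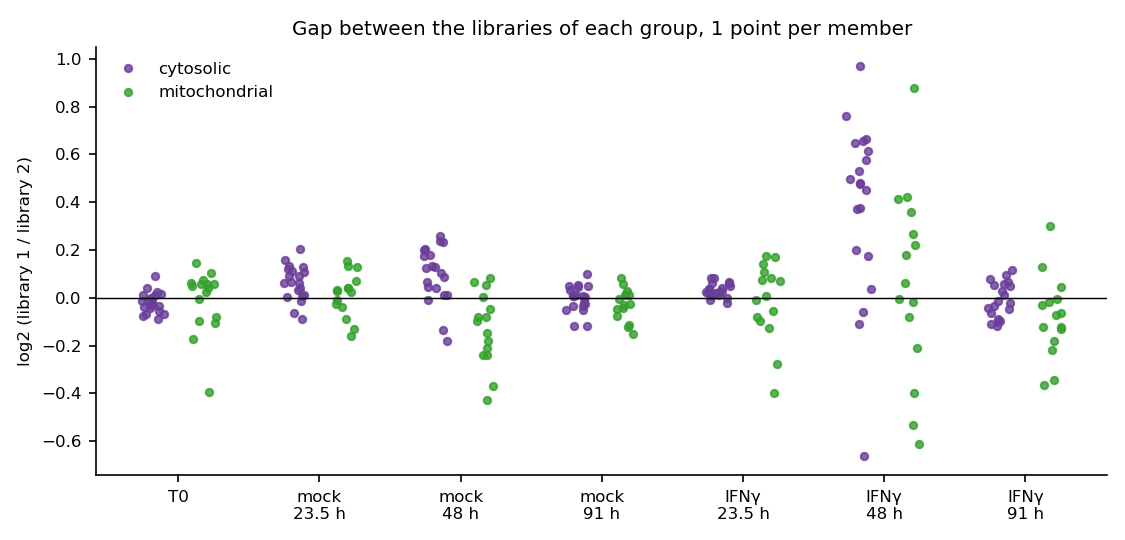
Log2 ratio of library 1 to library 2 for each synthetase in each group, cytosolic in purple and mitochondrial in green. Points are members, spread sideways for visibility. Gaps over 0.25 in size were found for 23 of 35 members in IFNγ at 48 h and for at most 3 in any other group. Over all genes at 20 or more, the share was 51.5% in IFNγ at 48 h and 9.44% to 19.1% in the other groups. In IFNγ at 48 h it was 75.0% for cytosolic and 53.3% for mitochondrial members.

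At 91 h several cytosolic enzymes were lower after IFNγ than after mock. Of 20, 9 were lower and 1 higher, where 16.3% of all genes passed (7.54% lower, 8.75% higher), and 18 of 20 lay below 0 with a median of −0.12 (0.0040 over all genes). Gars had levels of 19590 and 19480 in mock and 15490 and 15610 in IFNγ, a ratio of −0.33 (SE 0.05, adjusted p = 0.00015). Lars had 5607 and 5439 in mock and 4302 and 4500 in IFNγ (−0.33, SE 0.05, adjusted p = 0.00022). Rars had 5398 and 5214 in mock and 4342 and 4475 in IFNγ (−0.27, SE 0.05, adjusted p = 0.0011). The libraries of these genes did not overlap. Tars had 4580 and 4750 in mock and 3775 and 4052 in IFNγ (−0.25, adjusted p = 0.0027). Eprs had 14470 and 14830 in mock and 11940 and 12890 in IFNγ (−0.24, adjusted p = 0.0037). Nars, Vars and Iars were lower by −0.21, −0.19 and −0.18. Sars was not among them, with 14590 and 14560 in mock and 15400 and 14730 in IFNγ (0.05, adjusted p = 0.54), nor was Aars (−0.09, adjusted p = 0.25). Qars was the 1 cytosolic gene that was higher, with 2180 and 2231 in mock and 2652 and 2482 in IFNγ (0.22, SE 0.05, adjusted p = 0.01).

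Among mitochondrial enzymes at 91 h, 1 of 15 was higher and 1 lower, where 8.75% of all genes were higher and 7.54% lower. Fars2, for phenylalanine, had levels of 254.6 and 275.3 in mock and 349.6 and 319.5 in IFNγ (0.34, SE 0.10, adjusted p = 0.039). Yars2, for tyrosine, had 440.3 and 436.9 in mock and 387.1 and 314.6 in IFNγ (−0.33, SE 0.10, adjusted p = 0.042). Both were close to the threshold and were lost with no filter on level. All 12 calls at 91 h, in both classes, were lost with no trend of the variance (71 genes higher and 36 lower in all) and in 1 fit over all 14 libraries (78 and 64). Without IFNγ library 1, 6 of 12 remained: Gars, Lars, Nars, Rars, Wars and Yars2. Of the 25 ATF4 pathway genes, 20 were lower in IFNγ than in mock at 91 h and 0 higher, where 7.54% of all genes were lower, with a median of −0.30. At 23.5 h, when Kars and Rars were higher, 6 of the 25 were lower and 2 higher (6.06% and 8.55% of all genes), with a median of −0.08. Those lower at that time included Slc7a11 (−0.39), Chac1 (−0.41) and Gdf15 (−0.88), which were chosen for mention after their values were seen. Asns had 10440 and 10280 in mock and 8422 and 8268 in IFNγ (−0.31), and the cystine transporter gene Slc7a11 had 3880 and 3888 in mock and 2070 and 2466 in IFNγ (−0.78). Ddit3, with 12720 and 13330 in mock and 15880 and 13610 in IFNγ, and Trib3 did not pass (0.17 and −0.12).

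**Figure D5:**
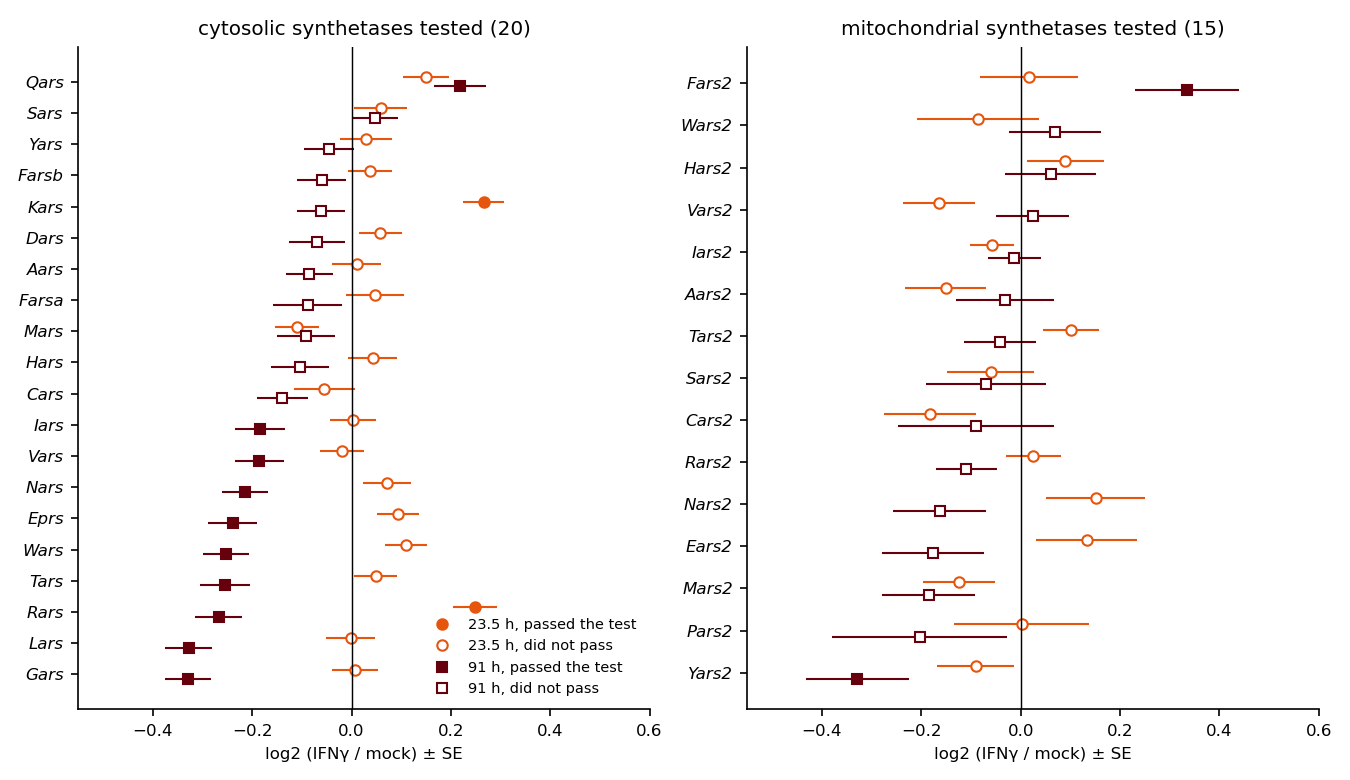
Log2 ratio of IFNγ to mock, with its SE, at 23.5 h (circles) and 91 h (squares) for the 20 cytosolic and the 15 tested mitochondrial synthetases, sorted by the value at 91 h. Filled symbols passed limma at an adjusted p under 0.05, with 2 libraries per group. At 91 h, 9 cytosolic genes from Iars (−0.18) to Gars (−0.33) passed as lower, and at 23.5 h Kars (0.27) and Rars (0.25) passed as higher.

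The change of the IFNγ effect between 23.5 and 91 h was tested as an interaction over 8 libraries. It was lower at 91 h for 8 of 20 cytosolic members and higher for 0, where 9.29% of all genes passed (5.35% lower, 3.94% higher), and 0 of 15 mitochondrial members passed. Rars moved most, by −0.52 (SE 0.06, adjusted p = 9.7e-05), since it passed as higher at 23.5 h and as lower at 91 h. Wars moved by −0.36 (SE 0.06, adjusted p = 0.00094). Gars, Eprs, Kars, Lars, Tars and Nars moved by −0.28 to −0.34. With no trend of the variance Rars and Wars remained, and in 1 fit over all 14 libraries 0 of the 8 did, with an adjusted p of 0.764 for Wars, whose range over the alternatives was 0.00043 to 0.764. Without IFNγ 23.5 h library 1, 4 remained (Gars, Kars, Rars and Wars).

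Against T0, the IFNγ groups were tested by the authors, and the values in this paragraph are those of the authors' deposited tables. At 23.5 h, 7 of 20 cytosolic members were higher and 0 lower at an adjusted p under 0.05, where 11.5% of all listed genes were higher and 8.31% lower, and 0 of 16 mitochondrial ones were higher and 4 lower. At 48 h the cytosolic counts were 13 higher and 2 lower (24.1% and 21.4% of all genes) and the mitochondrial ones 2 and 7. At 91 h they were 12 and 6 (31.9% and 30.6%), and 3 and 7. Wars in the authors' deposited tables had a log2 ratio to T0 of 0.11 (adjusted p = 0.203), 0.96 (adjusted p = 4.3e-31) and 1.71 (adjusted p = 4.8e-167) at the 3 times in IFNγ.

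Genes that act beside the synthetases had their own courses. Of the scaffold genes of the multisynthetase complex, Aimp2 fell throughout mock culture, with log2 ratios to T0 of −0.26, −0.81 and −1.37 at 23.5, 48 and 91 h and levels of 534.4 and 587.4 in T0 and 212 and 222 in mock 91 h. Eef1e1 was lower at 91 h (−0.40) and Aimp1 higher (0.37). Aimp2 was higher in IFNγ than in mock at 23.5 h (0.29), the 1 of 3 scaffold genes that passed, where 8.55% of all genes were higher. Its level was 560.9 in T0, 466.3 in mock 23.5 h and 572.2 in IFNγ 23.5 h. Of the 8 synthetases of the complex, 2 were higher there (Kars and Rars) and 6 did not pass. Mtfmt, which formylates the mitochondrial initiator transfer RNA, was lower in mock 91 h than in T0 (−0.65). In the same comparison 37.2% of all genes were higher and 37.1% lower. Of 9 mitochondrial translation factors, 1 was higher and 4 lower there, with the elongation factors Tufm and Gfm1 at −0.68 and −0.79. Of 4 cytosolic elongation factors tested at 91 h, Eef1b2, Eef1d and Eef1g were lower and Eef2 higher (0.49). Eef1a1, not resolved in mock and so not tested, had a level of 96390 in T0 and 118700 in mock 91 h. The median log2 ratio in mock 91 h over T0 was −0.40 for the scaffold genes and −0.26 for the mitochondrial translation factors. It was −0.47 for the 4 cytosolic elongation factors tested, which leave out Eef1a1. Of the tryptophan list, 3 of 6 genes were listed, and the transporter genes Slc7a5 and Slc7a8 were higher in mock than in T0 at 48 h (1.03 and 1.47).

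The genes whose group means over the 7 groups ran most like those of Wars, by Pearson's r of log2(level + 1) among 12628 genes, were Alkbh6 (0.999), Cdk10 (0.999), G730046D07Rik (0.999), Mrpl24 (0.998) and Gadd45a (0.998). The measure ignores the size of a change: Alkbh6 ran from 369.1 in T0 to 546.1 in mock 91 h, a range of 0.56 on the log2 scale, and Gadd45a spanned 3.57. Of the synthetases, Aars came nearest (r = 0.984, rank 122), then Sars (0.98). Gars, Eprs and Yars lay between 0.963 and 0.965, and Nars was at 0.956. These are descriptions over 7 points that share their libraries' scale.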

How the data were processed

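The 6 deposited tables each compare T0 with 1 other group. Per the file headers, the authors deposited 2 mean signal columns (T0 and the group compared), the log2 of T0 over that group, and p-values, raw and adjusted. DESeq (its version is not recorded), HTSeq 0.5.3, Picard 1.124 and STAR 2.5.0a are named in the submitters' processing notes, with the builds mm10 and GRCm38. Strand setting and handling of multiply matching reads: not given in the sources used here. Entries naming no gene, present in 5 tables, made up 57.1% to 70.3% of listed totals and were left out.

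The labels name 1 sample per group, but nearly all means can be written as whole numbers of 2 fixed steps, which is how an average of 2 size-scaled read numbers looks. Such whole-number pairs were solved within 1.2 times the rounding error: 156350 of 157036 values (99.6%) had exactly 1 pair, 100 had none and 586 several, and 0 of 13279 T0 genes solved in more than 1 table conflicted. For levels of 3000 or more, libraries had to lie within a log2 ratio of 2. Solving and testing were checked on simulated data. Library 1 has the larger size factor, and the number pairs nothing across groups. The IFNγ and mock groups stand in tables normalised separately, so levels were put on 1 scale through T0, on which every IFNγ against mock value rests.

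limma 3.58.1 (R 4.3.3), with a trend of variance with level, took log2(normalised reads + 1) from the 4 libraries compared (8 for the interaction), over genes at 20 or more in either group, two-sided, with Benjamini-Hochberg adjustment over all genes tested and a threshold of 0.05. The pseudocount understates changes of low genes. SDs, SEs and p-values rest on 2 libraries per group. Of 36 members, 35 passed the filter and were resolved; Lars2 was not resolved outside T0. Members were named in full where they passed: up to 6 cytosolic and 3 mitochondrial ones per comparison, by size of the log2 ratio, plus the highest of each class and Wars throughout; others were named by range or to account for every member. Members and lists were chosen with earlier results of these data known, and the counts of 1 list are not reported here. Alternatives were no variance trend, 1 fit over 14 libraries, other scales between libraries, a pseudocount of 5, no filter, limma voom, leaving out each library, and a deposited threshold of 0.01. Gene positions and exon lengths are those of GENCODE M21 (GRCm38), and Mars was matched to RefSeq's promoter by gene ID. Other software was Python 3.11.15, numpy 2.4.6, pandas 2.3.3, scipy 1.17.1 and matplotlib 3.10.9.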

Additional observations from a re-analysis of the deposited data

Results flagged for a closer look

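For 8 cytosolic synthetases the difference between IFNγ and mock was not the same at 91 h as at 23.5 h, by limma's interaction over 8 libraries with Benjamini-Hochberg adjustment. The IFNγ effect at 91 h minus that at 23.5 h was −0.52 for Rars (adjusted p = 9.7e-05), −0.36 for Wars (adjusted p = 0.00094), −0.34 for Gars (adjusted p = 0.0039) and −0.33 for Eprs (adjusted p = 0.0056). It was −0.33 for Kars (adjusted p = 0.0033), −0.33 for Lars (adjusted p = 0.0094), −0.30 for Tars (adjusted p = 0.012) and −0.28 for Nars (adjusted p = 0.017). Of these, Rars alone passed in opposite directions at the 2 times (0.25 and −0.27), and Kars passed at 23.5 h (0.27) but not at 91 h (−0.06). In all 8, the log2 ratio at 91 h was below that at 23.5 h, and in the 14-library fit none of them passed.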

How the results depend on the processing

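No call of a member between groups changed sign under any alternative run. Wars kept its direction and its side of the threshold in mock against T0 at 48 and 91 h under all of them. With no variance trend, members passing in mock 23.5 h against T0 fell to 0 higher and 0 lower, in IFNγ against mock to 0 higher at 23.5 h and to 0 higher and 0 lower at 91 h, and in the interaction to 2 lower, and Wars at 91 h did not pass (−0.25). In 1 fit over all 14 libraries the numbers were 0 and 0 in mock 23.5 h, 1 higher in IFNγ against mock at 23.5 h, 0 and 0 at 91 h and 0 in the interaction, and Wars passed neither at 91 h (−0.25) nor in the interaction (−0.36). With no filter on level, 1 member was higher at 91 h. At a deposited threshold of 0.01, 1 member was lower in IFNγ 23.5 h than in T0, against 4 at 0.05. The causes were not tested. Leaving out single libraries gave 2 to 5 members higher and 0 to 2 lower in IFNγ against mock at 23.5 h, 0 to 1 and 0 to 13 at 48 h, and 0 to 2 and 6 to 10 at 91 h. It gave 1 to 8 higher and 0 to 4 lower in mock 23.5 h against T0, and 4 to 8 lower in the interaction. Wars at 48 h ran from −0.69 to 0.28. With 1 library left in a group, that library is assumed to vary like the others, and such counts moved over all genes as well. All-gene counts moved too: in mock 23.5 h against T0 from 1009 higher and 771 lower to 17 and 18 with no trend and 44 and 20 in the 14-library fit, and in IFNγ against mock from 1065 and 755 to 295 and 85 and to 241 and 77 at 23.5 h, and from 1088 and 937 to 71 and 36 and to 78 and 64 at 91 h. No paired analysis was possible because library numbers only name the recovered libraries. Most mitochondrial members had far fewer reads than the cytosolic ones and a wider SE, and with 2 libraries per group small changes can be missed.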

Other observations

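Of 14 pairs of a cytosolic and a mitochondrial enzyme for the same amino acid, both passed in the same direction in mock 91 h against T0 in 6, both passed in opposite directions in 5, and in 3 not both passed (phenylalanine, whose cytosolic enzyme has 2 subunits, was left out). Among the opposite pairs, the cytosolic and the mitochondrial enzyme had log2 ratios of 1.54 and −0.92 for serine (Sars, Sars2), 0.92 and −0.27 for alanine (Aars, Aars2), and 0.38 and −0.40 for isoleucine (Iars, Iars2). They were 0.48 and −0.28 for threonine (Tars, Tars2) and 0.41 and −0.35 for tyrosine (Yars, Yars2). For asparagine both rose (Nars 1.01, Nars2 0.62), as did those for tryptophan (Wars 1.96, Wars2 0.36), glutamate (Eprs 1.19, Ears2 0.42) and arginine (Rars 0.93, Rars2 0.14). For methionine both fell (Mars −0.79, Mars2 −0.85), as did those for valine (Vars −0.43, Vars2 −0.27). Over the 7 group means, Iars2 and Hars ran most nearly opposite to Wars among the synthetases (Pearson's r of −0.98 and −0.97, as a description).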
